A study of Mus musculus with 4 samples.

Results

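ATP-binding cassette (ABC) transporters were examined by RNA-Seq in mouse small intestine and colon. Genes were taken by name, as every mm9 symbol made of Abc, a letter from a to g and a digit, apart from the cholesterol transporters Abca1, Abcg5 and Abcg8. The rule gave 47 of 20766 condensed genes (all exons of a gene joined): 15 of subfamily A, 10 of B, 10 of C, 4 of D, 1 of E, 3 of F and 4 of G. No measured value entered this rule, but it was chosen with earlier results of these data known. ABC genes that carry other symbols, such as the chloride channel gene Cftr and the peptide transporter genes Tap1 and Tap2, were kept as a separate list.

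An ABC protein binds and splits ATP in its nucleotide-binding domain, which holds a Walker A motif and the ABC signature. Most members couple this to the transport of a molecule across a membrane. In the gut, P-glycoprotein (Abcb1a, Abcb1b), Mrp2 (Abcc2) and the breast cancer resistance protein (Abcg2) sit on the luminal side of epithelial cells and return drugs and conjugates to the lumen, whereas Mrp3 (Abcc3) sits on the side that faces the blood. Members of subfamily D bring fatty acyl-CoA into peroxisomes or handle cobalamin in lysosomes, several of subfamily B work in mitochondria, and Abce1 and subfamily F have no membrane part and act on ribosomes.

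All 4 libraries came from untreated C57BL/6 mice aged 9 to 10 weeks, kept under specific pathogen-free conditions, and from whole frozen tissue, which the methods describe as jejunum and distal colon. For each tissue there was 1 library of polyadenylated RNA, made by SMART cDNA synthesis from an oligo-dT primer with fragmentation of the cDNA (polyA below), and 1 library made with a whole transcriptome kit from fragmented RNA that the labels call ribosomal RNA depleted (rRNA-depleted below). Whether the rRNA-depleted libraries are those of the paper was not settled (see the processing below), so details taken from its methods are less certain for them. The paper speaks of tissues of shared animals, but the labels do not say which mouse gave which library. In the fit with tissue and protocol, p-values rest on how far the protocols disagree on the tissue difference, which may be technical. In whole tissue, fewer cells of a type and less RNA per cell cannot be told apart.

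Uniquely placed reads numbered 22484041 in small intestine and 24798934 in colon by polyA, but 2035386 and 3478387 by rRNA depletion, so the rRNA-depleted values are less precise. The tissues matched their labels: all 5 enterocyte markers (such as Sis and Fabp2) were higher in small intestine and all 4 colonocyte markers (such as Car1 and Aqp8) higher in colon in the fit described below. Some markers of the other tissue were higher by rRNA depletion. Apoa4 in colon was at 0.218 RPKM by polyA and 54.2 by rRNA depletion, and Car1 in small intestine at 0 and 26.8. Others were lower, such as Fabp2 in colon (4468 and 403 RPKM). The source of these reads was not tested. All 5 smooth muscle markers were higher in colon, with a summed level of 221 and 834 RPKM in small intestine and colon by polyA and 191 and 1793 RPKM by rRNA depletion. Epithelial markers summed to 8833, 3198, 2201 and 989 RPKM in small intestine polyA, colon polyA, small intestine rRNA-depleted and colon rRNA-depleted, and 2 of 4 were higher in small intestine. Krt20 alone made up 7588 and 2523 RPKM of the polyA sums. Cdh1 and Epcam were not called, and Cdh1 was at 75.7 RPKM in small intestine and 86.4 RPKM in colon by polyA. Of 5 immune markers 3 were higher in small intestine, of 5 neuronal and glial markers 1 in colon, of 3 tested adipocyte markers 1 in colon, and no endothelial or fibroblast marker was called. The part of these cell types in the results below was not tested. Pancreatic acinar markers summed to 18.6, 708, 1507 and 296 RPKM in the same order, with none of the 5 tested called. Nearly all of the first and last sums was Cela1 (18.3 and 293 RPKM). Pnlip had 0, 2248, 1119 and 3 reads and Cpa1 0, 936, 599 and 2, so the tissue with more of them changed with the protocol. Opposite differences cancel in the fit, so the lack of a call does not show equal levels. The source of these reads was not tested.

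The signature was searched as the family pattern of that name in the mm9 coding frame of each member, on the gene strand only. It was found in 42 of the 47 members and in 0.327% of the 19897 condensed genes with a coding frame, and the shorter Walker A pattern in 46 members and in 6.26% of these genes. A single signature was present in 27 members and a pair in 15. Abca6, Abca16, Abcc2, Abcg2 and Abcg3 had no match to the signature, and Abcg3 had none to Walker A either. These are matches of a pattern and do not show whether the domain works. The signature is printed for 4 members that differed between the tissues in the fit below and past their counting error in both protocols, because the reads on the exon that holds them can be set beside it. Each is read 5′ to 3′ on the gene strand from mm9, with the codons of the signature in capitals and neighbouring bases of the same exon in lower case. Abcc3 and Abcc1 have a pair, of which the one nearer the start is printed, because the other is split between exons.

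Abca12, chr1:71333106-71333204, minus strand: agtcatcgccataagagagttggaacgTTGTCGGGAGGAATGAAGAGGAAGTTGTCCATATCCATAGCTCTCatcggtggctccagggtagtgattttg
Abcb6, chr1:75169135-75169233, minus strand: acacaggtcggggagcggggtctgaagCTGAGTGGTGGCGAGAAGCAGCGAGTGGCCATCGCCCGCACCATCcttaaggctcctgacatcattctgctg
Abcc3, chr11:94223051-94223131, minus strand: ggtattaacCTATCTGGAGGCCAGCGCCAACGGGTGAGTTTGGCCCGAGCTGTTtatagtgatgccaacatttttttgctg
Abcc1, chr16:14447571-14447651, plus strand: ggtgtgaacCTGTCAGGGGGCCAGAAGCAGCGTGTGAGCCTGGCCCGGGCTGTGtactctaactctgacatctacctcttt

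Reads on the exon that holds the signature, in the order small intestine polyA, colon polyA, small intestine rRNA-depleted and colon rRNA-depleted, were 0, 8, 0 and 12 for Abca12 and 13, 60, 2 and 4 for Abcb6. They were 2, 51, 2 and 16 for Abcc3 and 4, 16, 0 and 10 for Abcc1. These are reads not scaled for depth, from genes already higher in colon in both pairs, so they are a description of where reads fell and no further support. The Abcb6 exon had very few by rRNA depletion. For Abcc2 and Abcg2, which had no signature match, the codons of Walker A are in capitals.

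Abcc2, last Walker A, chr19:43906535-43906597, plus strand: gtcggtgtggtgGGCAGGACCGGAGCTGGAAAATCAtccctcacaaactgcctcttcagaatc
Abcg2, chr6:58613615-58613667, plus strand: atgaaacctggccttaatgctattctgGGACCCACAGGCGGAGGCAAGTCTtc

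On the Abcc2 exon 159 reads fell in small intestine against 0 in colon by polyA, and 20 against 0 by rRNA depletion. On the Abcg2 exon 104 reads fell in each polyA library, and 3 and 0 by rRNA depletion. The other Walker A exon of Abcc2 held 31 and 0 reads by polyA and 22 and 2 by rRNA depletion. Reads on both Abcc2 exons thus came mostly from small intestine, while those on the Abcg2 exon were equal between the polyA libraries.

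Levels are given as RPKM, reads per 1000 exon bases and 1000000 uniquely placed reads. Presence asked for more than 0.01 RPKM and reads from 2 or more start points, with reads on exon-exon junctions included. On exon reads alone, Abca16 in colon and Abca17 in small intestine, both by polyA, had 1 start point. Of the 47 members, 41 were present in small intestine and 44 in colon by polyA, and 35 and 40 by rRNA depletion. Of all 20766 genes, 15502 and 16104 were present by polyA, and 13522 and 14662 by rRNA depletion. The median level over present members was 1.31, 1.04, 4.86 and 5.22 RPKM in small intestine polyA, colon polyA, small intestine rRNA-depleted and colon rRNA-depleted, beside 2.99, 3.42, 6.85 and 7.10 RPKM over all present genes. Members took between 0.176% and 0.212% of the reads of a library.

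**Figure D1:**
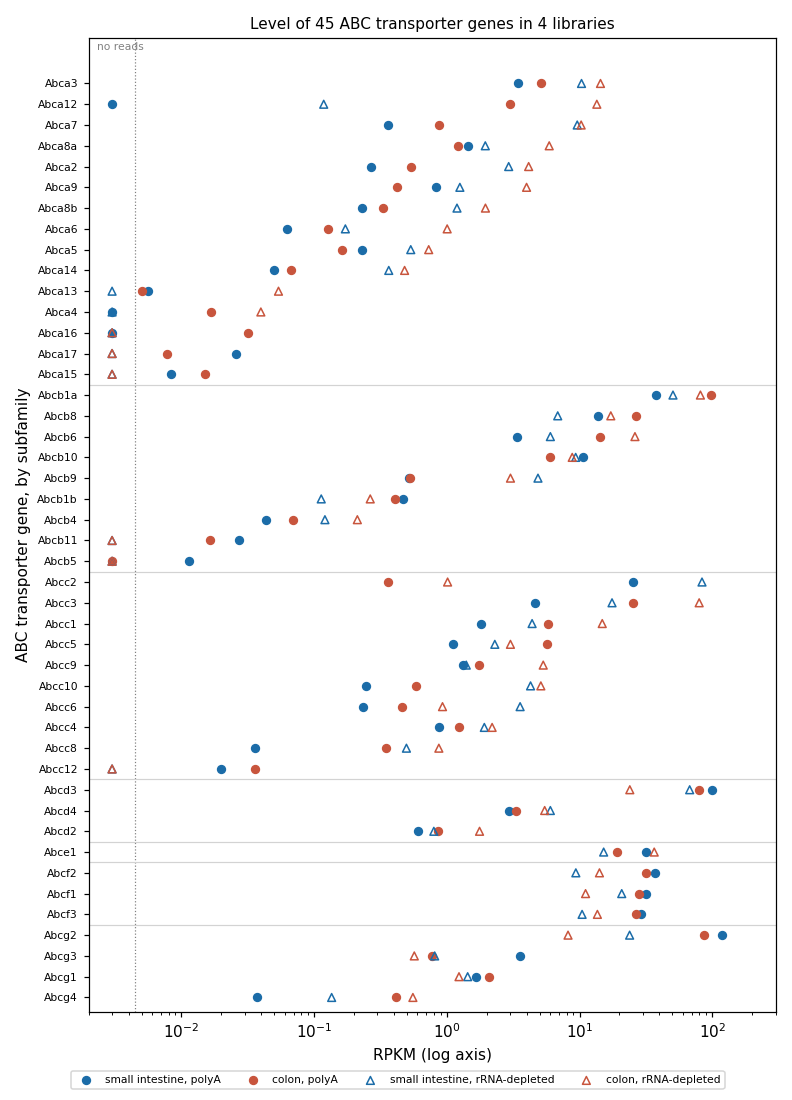
Level of 45 of the 47 ABC transporter genes on a log axis of RPKM, grouped by subfamily, with filled circles for polyA and open triangles for rRNA-depleted libraries, blue for small intestine and red for colon. Points left of the dotted line had 0 reads. Every member of subfamily A stayed below 10 RPKM by polyA, and Abcb1a, Abcd3 and Abcg2 lay farthest to the right.

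A few members were well above the detection limit throughout. Abcb1a, Abcd3, Abce1, Abcf1 and Abcf3 were at 10 RPKM or more in all 4 libraries. At the other end, 10 members had fewer than 10 reads in every library: Abca4 (the retinal transporter), Abca13, Abca14, Abca15, Abca16, Abca17, Abcb4 (the bile phospholipid flippase), Abcb5, Abcb11 (the bile salt export pump) and Abcc12. Abcb11 had 3 and 2 reads by polyA and 0 and 0 by rRNA depletion, and Abcb4 had 4, 7, 1 and 3 reads, so these transporters of liver bile were at the edge of detection. No member was at 0 reads in all 4 libraries, but Abcb5 had a single read, in small intestine polyA. That read was placed on an exon-exon junction, and Abcb5 had no exon read in any library. The counts in this paragraph were not made over all genes.

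The leading member differed between libraries. Abcg2 led in small intestine by polyA (119 RPKM, 95% Poisson interval 116 to 122), followed by Abcd3 (99.0 RPKM, 96.8 to 101). Abcb1a led in colon by polyA (98.1 RPKM, 96.4 to 99.9), and its interval did not meet that of Abcg2 (86.2 RPKM, 83.9 to 88.5). Abcc2 led in small intestine by rRNA depletion (83.8 RPKM, 78.5 to 89.4). In colon by rRNA depletion Abcb1a (81.5 RPKM, 77.3 to 85.9) and Abcc3 (79.8 RPKM, 75.6 to 84.1) overlapped. As reads per 1000 uniquely placeable windows per 1000000 reads they were at 152 and 100, so the gap between them depends on the length used. These intervals cover counting error only and say nothing on animals.

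Within subfamilies, Abca3 (lipid transport into lamellar bodies) was the highest of subfamily A in every library, at 3.45, 5.10, 10.4 and 14.4 RPKM, but by rRNA depletion its interval overlapped that of Abca7 in small intestine and that of Abca12 in colon. Abcb1a led subfamily B, Abcd3 subfamily D and Abcg2 subfamily G in all 4 libraries. Subfamily C changed its leader with the tissue, from Abcc2 in small intestine to Abcc3 in colon, in both protocols. Abcf2 led subfamily F except in small intestine rRNA-depleted, where Abcf1 did, and in colon rRNA-depleted its interval overlapped that of Abcf3. The share of subfamily G in the summed member RPKM was 24.7% and 18.3% by polyA but 5.93% and 2.32% by rRNA depletion, and that of subfamily A was 1.39% and 2.44% against 6.43% and 12.4%. The makeup of the family as read from these libraries therefore depended on the protocol as well as on the tissue.

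Tissues were compared first within each protocol. A member was past 3-fold when its RPKM in a tissue was at least 3 times that in the other after 1 RPKM had been added to the latter. By polyA, Abca12, Abcb6 and Abcc3 were past 3-fold in colon, which was 3 of 45 members tested beside 3.19% of all genes tested, and 2 of 45 in small intestine, among them Abcc2, beside 2.73%. By rRNA depletion the same 3 genes were past it in colon, 3 of 40 beside 6.6%, and Abcc2 in small intestine, 1 of 40 beside 3.7%. In both pairs at the same time these were 3 members in colon beside 2.26% and 1 in small intestine beside 2.06% of all genes. As shares of the members tested, these were 6.67% in colon and 4.44% in small intestine by polyA, 7.5% and 2.5% by rRNA depletion, and 7.69% and 2.56% in both pairs. Each share rests on 1 to 3 genes. With 1 library per tissue and protocol these are differences between libraries, with no replicate error.

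Both pairs were then fitted together, with tissue and protocol as terms, by limma with voom weights on the reads of 13853 genes, 36 of them members. By limma at an adjusted p under 0.05, 5 members were higher in colon (Abca12, Abcb6, Abcc1, Abcc3, Abcc5) beside 6.92% of all genes tested, and 3 were higher in small intestine, among them Abcc2 and Abcg3, beside 6.67%. Abca12 entered the test only through the colon libraries, where it is high, so its call is no support. The fit has 1 residual degree of freedom, which is how far the tissue difference disagrees between the protocols. Its error is mostly that disagreement as shared among genes. The median log2 difference was 0.03 over the members and 0.11 over all genes tested. Scaling factors (trimmed mean of M values) used in the fit lowered colon against small intestine by 0.22 on the log2 scale in the polyA pair and by 0.32 in the rRNA-depleted pair, whereas ratios of RPKM carry no such scaling.

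**Figure D2:**
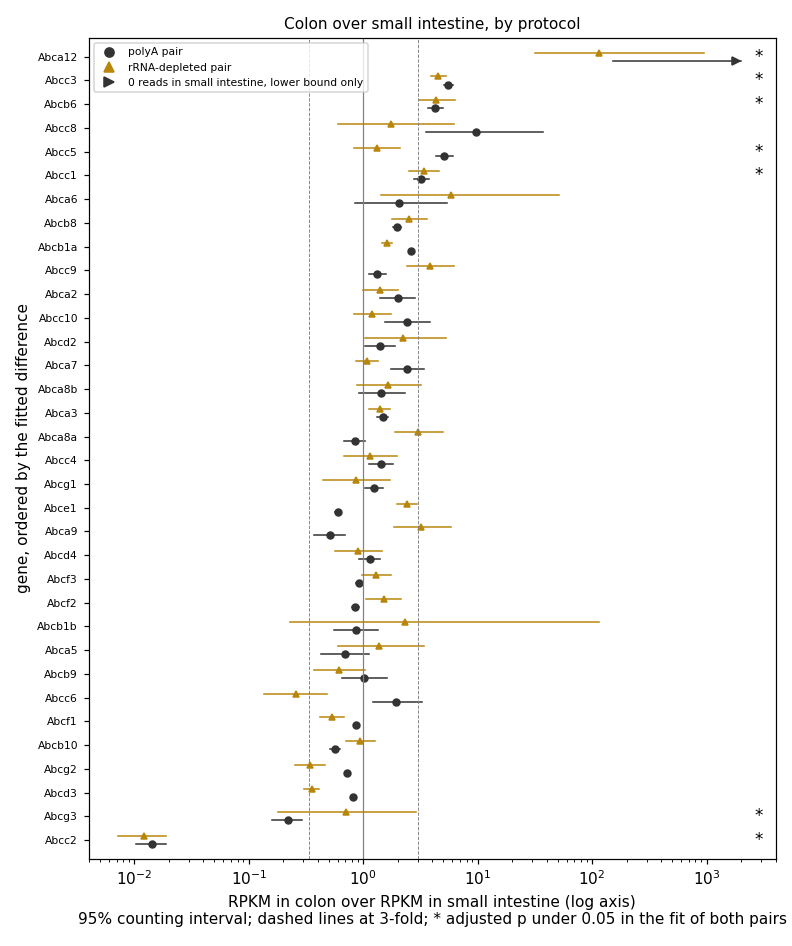
RPKM in colon over RPKM in small intestine on a log axis for 34 of the 36 fitted members, with circles for the polyA pair, triangles for the rRNA-depleted pair and bars for the 95% counting interval. Dashed lines mark 3-fold and asterisks 7 of the 8 members called in the fit of both pairs. Abcc2 at the bottom and Abca12 at the top stand apart in both protocols.

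Abcc2 showed the widest gap toward small intestine. This gene (chr19:43856798-43912708, plus strand, 32 exon blocks) encodes an export pump for glucuronide and glutathione conjugates. It had 3067 reads in small intestine and 48 in colon by polyA, and 919 and 19 by rRNA depletion, which were 25.3, 0.359, 83.8 and 1.01 RPKM. Both small intestine libraries lay above both colon libraries. The ratio was 70.5-fold (95% counting interval 53.0 to 95.8) by polyA and 82.7-fold (52.6 to 138) by rRNA depletion, and the fitted log2 difference was -6.47 (SE 0.50, limma adjusted p 5.12e-10). With start points in place of reads, the log2 ratio by rRNA depletion was -5.40 in place of -6.37. Reads from small intestine covered all 32 blocks by polyA and 31 by rRNA depletion.

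Abcc3 moved the other way. This gene (chr11:94204609-94254290, minus strand) encodes a basolateral pump that also carries conjugates and bile salts. Its reads were 515 and 3140 by polyA and 179 and 1388 by rRNA depletion, or 4.58, 25.3, 17.6 and 79.8 RPKM in small intestine polyA, colon polyA, small intestine rRNA-depleted and colon rRNA-depleted. Colon was higher within each protocol, although small intestine by rRNA depletion and colon by polyA lay close together. The colon excess was 5.53-fold (5.03 to 6.08) and 4.54-fold (3.88 to 5.33), with a fitted log2 difference of 2.07 (SE 0.38, limma adjusted p 0.000316). Abcc2 and Abcc3 thus exchanged rank: by polyA their level was 25.3 and 4.58 RPKM in small intestine and 0.359 and 25.3 RPKM in colon.

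Abca12, which carries glucosylceramide into lamellar bodies of the epidermis, was found nearly only in colon. It had 0 reads in small intestine and 621 in colon by polyA, and 2 and 391 by rRNA depletion. The tissues did not overlap. Against a limit of 3 reads, colon was at least 188-fold higher by polyA (the 95% counting interval of this ratio starts at 152), and the ratio by rRNA depletion was 114-fold (31.5 to 948), or 6.84 on the log2 scale, which was 6.00 with start points in place of reads. Its levels in colon were 3.01 RPKM by polyA and 13.5 RPKM by rRNA depletion. The fitted log2 difference of 8.05 (SE 0.88, limma adjusted p 1.48e-07) rests on a prior count for the library with 0 reads and is no bound, and it was 9.92 without either rRNA-depleted library and 6.20 without either polyA library. At 3.01 RPKM it was barely past the 3-fold rule by polyA and was no longer past it when reads on exon-exon junctions were left out. Colon reads touched 48 of its 53 exon blocks by polyA and 51 by rRNA depletion. In the latter, block 27 of 156 bases held 61 of 388 exon reads, 32 of them at a single start point.

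Abcb6, a porphyrin transporter, had 221 and 1040 reads by polyA and 36 and 267 by rRNA depletion. The colon excess was 4.27-fold (3.69 to 4.96) and 4.34-fold (3.06 to 6.33), with a fitted log2 difference of 1.84 (SE 0.44, limma adjusted p 0.00415). The protocols gave nearly the same ratio for this gene, but with start points in place of reads it was not past 3-fold by rRNA depletion, nor was Abcc3, and with median-of-ratios scaling Abcb6 was not past 3-fold in either pair. Abcc1, a basolateral pump for glutathione conjugates, had 241 and 855 reads by polyA and 53 and 306 by rRNA depletion. Its excess in colon was 3.22-fold (2.78 to 3.73) and 3.38-fold (2.52 to 4.61), with a fitted log2 difference of 1.45 (SE 0.43, limma adjusted p 0.0212). It passed the fit but not the 3-fold rule, because of the 1 RPKM added to the divisor, and the call ended when no filter on low counts was applied (limma adjusted p 0.0673).

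The calls of Abcc5 and Abcg3 rested on the polyA pair. Abcc5, a pump for cyclic nucleotides, had 154 and 867 reads by polyA but 29 and 65 by rRNA depletion, so that colon was 5.10-fold (4.30 to 6.10) and 1.31-fold (0.834 to 2.11) higher. Its fitted log2 difference of 1.48 (SE 0.50, limma adjusted p 0.0494) became 2.13 without either rRNA-depleted library and 0.06 without either polyA library. The call ended with median-of-ratios factors, with no filter on low counts, with at most 1 mismatch and with exon reads alone. Abcg3, a rodent relative of Abcg2, had 241 and 58 reads by polyA but only 5 and 6 by rRNA depletion. Small intestine was 4.58-fold (3.43 to 6.22) higher by polyA and 1.42-fold (0.344 to 5.60) by rRNA depletion. The fitted value of -2.07 (SE 0.60, limma adjusted p 0.0185) became -2.41 from the polyA pair alone and -0.85 from the rRNA-depleted pair alone. The interval by rRNA depletion includes 1 as well as the polyA ratio. The call ended with total reads in place of scaling factors, with no filter and with at most 1 mismatch.

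The luminal drug pumps Abcb1a and Abcg2 were read in all 4 libraries. Abcb1a had 4223 and 12111 reads by polyA and 513 and 1411 by rRNA depletion, or 37.7, 98.1, 50.6 and 81.5 RPKM. Colon was 2.60-fold (2.51 to 2.69) and 1.61-fold (1.45 to 1.78) above small intestine, but the fitted log2 difference of 0.78 missed the threshold (SE 0.37, limma adjusted p 0.185). Abcg2 had 6662 and 5322 reads by polyA and 121 and 71 by rRNA depletion, or 119, 86.2, 23.9 and 8.19 RPKM. Small intestine was 1.38-fold (1.33 to 1.43) and 2.91-fold (2.16 to 3.96) above colon, and the fitted value of -1.10 missed the threshold as well (SE 0.42, limma adjusted p 0.0873). Each gene thus leaned to the same tissue in both protocols by an amount that differed between them. Abcb1b, the other mouse P-glycoprotein gene, had 46, 44, 1 and 4 reads.

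Among the other efflux pumps, no difference passed the test. Abcc4, which exports cyclic nucleotides and urate, was at 0.868, 1.24, 1.92 and 2.19 RPKM. Abcc10 was at 0.244, 0.587, 4.28 and 5.11 RPKM. Abcc6, which is needed for pyrophosphate release from the liver, was at 0.233, 0.455, 3.57 and 0.928 RPKM, so that colon was higher by polyA and small intestine by rRNA depletion. Their limma adjusted p was 0.898, 0.669 and 0.645. In RPKM, without the scaling factors of the fit, the 2 protocols were farther apart than the 2 tissues for Abcc4 and Abcc10. In the comparison of protocols below, Abcc10 was called and Abcc4 was not.

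Members of the inner mitochondrial membrane were measured at moderate levels. Abcb8 had 905 and 1954 reads by polyA and 41 and 176 by rRNA depletion, and colon was 1.96-fold (1.81 to 2.12) and 2.51-fold (1.78 to 3.62) higher. This did not pass the fit, with a limma adjusted p of 0.211. Abcb10, required for haem synthesis in red cell precursors, lay between 6.03 and 10.5 RPKM in the 4 libraries.

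The peroxisomal Abcd3, the importer of branched fatty acyl-CoA and bile acid precursors, was among the highest members. It had 7569 and 6755 reads by polyA and 468 and 283 by rRNA depletion, or 99.0, 80.1, 67.6 and 23.9 RPKM. Small intestine was 1.24-fold (1.20 to 1.28) and 2.83-fold (2.43 to 3.29) higher, and the fitted difference of -1.11 had a limma adjusted p of 0.0613. Abcd4, a cobalamin transporter of lysosomes, lay between 2.92 and 6.03 RPKM and Abcd2 between 0.610 and 1.76 RPKM, neither past the test. A list of 9 genes of peroxisomal beta-oxidation or peroxisome assembly was taken beside subfamily D. By limma at adjusted p under 0.05, 3 of them were higher in small intestine, beside the 6.67% of all genes given above, and none in colon. Among the 3 were Ehhadh (log2 difference -1.12) and Hsd17b4 (-1.49). Hsd17b4 was 1.58-fold higher by polyA and 4.47-fold by rRNA depletion, and Ehhadh 2.15-fold and 1.48-fold.

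Abce1, which splits ribosomes after termination, was higher in small intestine by polyA and in colon by rRNA depletion. Its reads were 2715 and 1809 by polyA and 118 and 485 by rRNA depletion, or 31.7, 19.1, 15.2 and 36.6 RPKM. The members of subfamily F, which regulate translation, were at 9.38 to 37.0 RPKM in all 4 libraries with no tissue call. None of their 6 partner genes in recycling and initiation was called.

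The sulfonylurea receptors form potassium channels with a pore subunit. Abcc9 of the vascular and smooth muscle channel had 228, 333, 22 and 143 reads, and colon was 1.32-fold (1.12 to 1.57) higher by polyA and 3.80-fold (2.42 to 6.26) by rRNA depletion, with a limma adjusted p of 0.410. Its pore partner Kcnj8 had 149, 366, 15 and 69 reads (log2 difference 0.98, limma adjusted p 0.214). The summed smooth muscle markers given above moved in the same direction, and their part in these values was not tested. Abcc8 of the endocrine and neuronal channel had 4, 43, 5 and 15 reads.

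The cluster of subfamily A genes on chr11, Abca8b, Abca8a, Abca9, Abca6 and Abca5, which lie 8670 to 29817 bases apart on the minus strand, was low. Its members were at 0.0622 to 1.44 RPKM by polyA and 0.172 to 5.91 RPKM by rRNA depletion. None was called between tissues. Abca9 had 116 and 65 reads by polyA but 16 and 87 by rRNA depletion, so the tissue with more of it changed with the protocol. The neighbours Abca14, Abca15 and Abca16 on chr7, known from testis, had at most 9 reads in any library.

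Further genes of transport and control were taken as lists beside the members. Of the ABC genes under other symbols, Tap1 was higher in small intestine (810, 350, 242 and 121 reads, log2 difference -1.80, limma adjusted p 0.00275), and Tap2 and Cftr were not called. Of 9 tested drug uptake carriers 2 were higher in small intestine: the peptide carrier Slc15a1 (12361, 506, 1645 and 360 reads, log2 difference -4.17) and the carnitine and ergothioneine carrier Slc22a4 (242, 96, 39 and 4 reads, log2 difference -2.37). Both depended in size on the pair, with Slc15a1 26.9-fold higher by polyA and 7.81-fold by rRNA depletion, and Slc22a4 2.78-fold (2.19 to 3.56) and 16.7-fold (6.01 to 64.2). Of 10 tested nuclear receptors and other regulators of efflux pump genes, 1 was called, the liver X receptor Nr1h3, higher in small intestine (log2 difference -1.65, limma adjusted p 0.00796), by 3.35-fold by polyA and 1.67-fold by rRNA depletion. The pregnane X receptor Nr1i2 had 1825 and 1853 reads by polyA and 294 and 102 by rRNA depletion (limma adjusted p 0.0618). None of 8 genes for haem and iron-sulfur synthesis was called. In these lists, no gene was called higher in colon, beside 6.92% of all genes tested, and the counts in small intestine stand beside 6.67%.

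The protocols were compared in the same fit. Of the 36 members 8 (22.2%) were higher by rRNA depletion beside 19.5% of all genes, and 7 (19.4%) were higher by polyA beside 27.3%. The former were Abca2, Abca7, Abca8b, Abca12, Abcb9, Abcc3, Abcc6 and Abcc10, and the latter Abcb8, Abcd3, Abcf1, Abcf2, Abcf3, Abcg2 and Abcg3. Abcg3 entered the test only through the polyA libraries, where it is high, so its call is no support. The most distant were Abca7, at 0.357 and 0.868 RPKM by polyA and 9.61 and 10.3 RPKM by rRNA depletion (log2 difference 3.35, SE 0.48, limma adjusted p 5.04e-06), and Abcg2 (log2 difference -3.56, SE 0.44, limma adjusted p 7.56e-07). Library kit, RNA selection, sequencing run and possibly mouse cannot be told apart in this comparison. With total reads in place of the scaling factors, 18 members were higher by rRNA depletion and 4 by polyA, and Abcb8, Abcf1 and Abcg3 lost the call. Calls also ended for Abca12, Abcc6 and Abcg3 with no filter on low counts, for Abca8b and Abcc6 with at most 1 mismatch, and for Abcc3 with start points in place of reads.

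The members called in either direction differed in length. Those higher by polyA had 2461 to 3399 exon bases, with Abcg3 inside this range, and the 8 higher by rRNA depletion had 3334 to 8323. Spearman's rho between exon bases and the protocol log2 difference was 0.61 over the 36 members and 0.48 over the 13853 genes tested. Genes are not independent replicates, and all points share the same 4 libraries. Members were longer than other genes, with a median of 5144 exon bases beside 2816 over all genes tested.

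Reads also lay at different places. For the 24 members with at least 20 exon reads in every library, the median share of reads in the last 1000 exon bases was 45.8% in small intestine and 49.6% in colon by polyA, and 27.7% and 30.2% by rRNA depletion, beside 21.7% of the bases. Abca7 was the clearest case, with 30 of 53 and 92 of 138 reads there by polyA (56.6% and 66.7%) but 9 of 124 and 25 of 231 by rRNA depletion (7.26% and 10.8%), beside 15.2% of its bases. Abcc3 had 42.8% and 47.9% by polyA and 28.0% and 18.6% by rRNA depletion. Abcb1a, though long, differed less, with 29.3% and 30.8% by polyA and 20.9% and 22.5% by rRNA depletion.

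**Figure D3:**
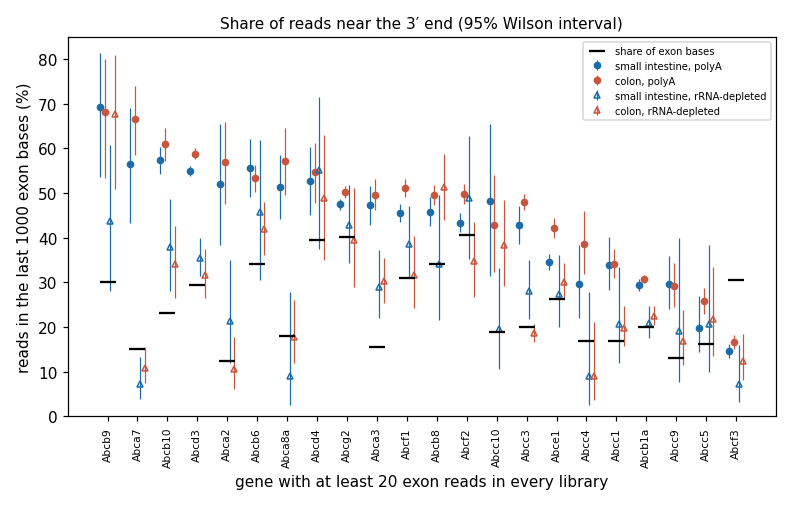
Share of exon reads in the last 1000 exon bases (in %) for 22 of the 24 members with at least 20 exon reads in every library, ordered by their mean share by polyA, with 95% Wilson intervals. Black dashes give the share of exon bases that lie there. Junction reads and reads with several placements are left out, so even coverage need not give this share. Most polyA points (filled) lie above the dashes, and most rRNA-depleted points (open) lie at lower shares than the polyA points of the same member.

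Some members had few reads near the annotated end in any library. Abcf3 had 14.6% and 16.5% of its reads in the last 1000 bases by polyA and 7.25% and 12.3% by rRNA depletion, although 30.4% of its bases lie there. Abcd2 had 5 of 76 and 1 of 118 reads there by polyA. In Abcg1, which moves sterols in macrophages, block 15 of 3925 bases held 217 of 218 and 298 of 299 exon reads by polyA, but only 7 and 17 reads lay in the last 1000 bases. The polyA reads of Abcg1 thus came from inside the last exon block and not from its annotated end, so its level rested on 1 of 15 blocks.

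**Figure D4:**
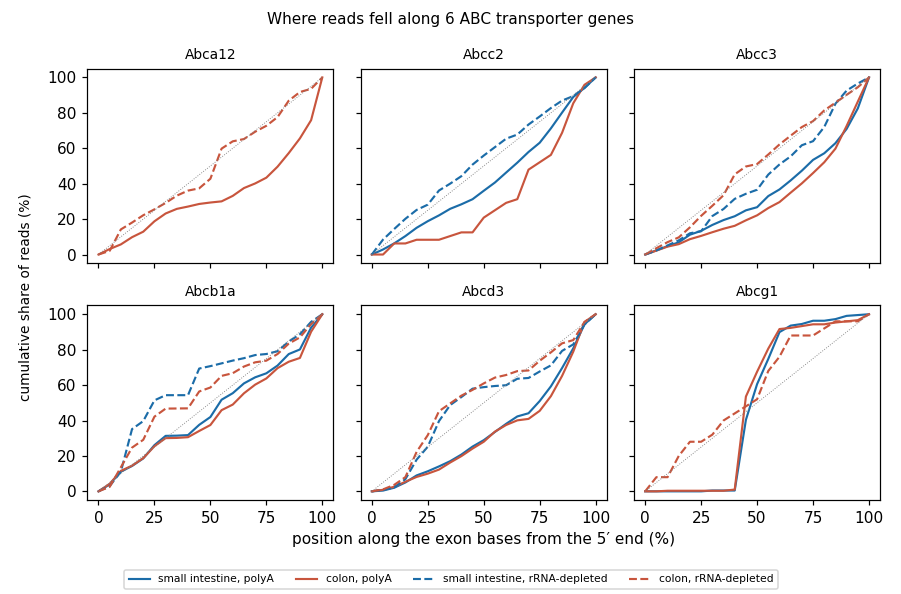
Cumulative share of exon reads (in %) against position along the exon bases from the 5′ end (in %) for 6 members, solid for polyA and dashed for rRNA-depleted, blue for small intestine and red for colon. Lines are drawn only for libraries with at least 20 exon reads, and the dotted diagonal is even coverage. Abcc3 and Abcd3 by polyA lie below the diagonal over most of the length, and Abcg1 by polyA rises in a single step inside its last block.

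In the rRNA-depleted libraries, which keep the strand, 99.5% of member exon reads in small intestine and 99.7% in colon were on the gene strand. Abca8b had 14 of 57 reads on the other strand, all in its last block 39 of 1206 bases. Abca6 had 3 of 22 reads on the other strand, and the intervals of the gene strand share overlapped (62.9% to 84.8% for Abca8b and 66.7% to 95.3% for Abca6). PolyA reads carry no strand, so reads of an opposite transcript cannot be set aside by polyA.

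The Abcb1a and Abcb1b genes lie side by side on chr5 and are near copies, which limits what a read of 35 bases can tell. Only 65.0% of the 35-base windows of Abcb1a, 58.2% of those of Abcb1b and 86.5% of those of Abcb4 were unique by the deposited rule of up to 3 color mismatches, whereas all windows of Abca12 were. The signature of the second ATP domain shows how close the genes are.

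Abcb1a, chr5:8746518-8746616, plus strand: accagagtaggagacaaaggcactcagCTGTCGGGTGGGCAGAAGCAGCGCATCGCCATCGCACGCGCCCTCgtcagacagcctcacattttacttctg
Abcb1b, chr5:8864124-8864222, plus strand: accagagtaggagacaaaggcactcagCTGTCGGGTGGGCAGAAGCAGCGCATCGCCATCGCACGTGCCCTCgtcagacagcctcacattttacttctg

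None of the 11 windows inside this signature was unique in either gene. The exon that holds it kept 16, 47, 0 and 2 reads for Abcb1a and 1, 0, 0 and 0 for Abcb1b. Further windows show both ends of the range, with bases that differ between the genes in capitals. The first drew the most reads of any Abcb1a coding window and the other is the same in both genes.

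Abcb1a, chr5:8686180-8686214, plus strand: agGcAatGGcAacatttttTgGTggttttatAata
Abcb1b, chr5:8813627-8813661, plus strand: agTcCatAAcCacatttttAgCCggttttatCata
Abcb1a and Abcb1b, chr5:8685222-8685256 and chr5:8812656-8812690, plus strand: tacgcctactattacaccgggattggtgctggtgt

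The window with 9 differing bases held 0, 3, 57 and 63 reads, so that a single start point gave 57 of 512 Abcb1a exon reads in small intestine by rRNA depletion. The identical window held 0 reads. Of the coding windows of Abcb1a, 830 were identical to a window of Abcb1b and held 0 reads. Another 496 differed by 1 base, and 319 of them held 676 reads, none without a mismatch. Where 8 or more bases differed, 668 of 721 windows held reads. Per 1000 unique windows and 1000000 reads, Abcb1a was at 70.5, 183, 96.2 and 152 and Abcb1b at 0.879, 0.592, 0.249 and 0.583. All reads of a gene are divided by its unique windows here, also those on windows 1 or 2 bases apart, so this is another scale and not a corrected level. Abcb1a remained far above Abcb1b on it.

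**Figure D5:**
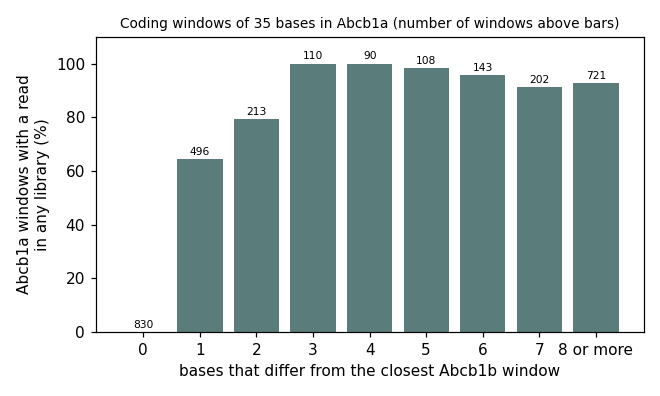
Share of Abcb1a coding windows of 35 bases that held a read in any of the 4 libraries (in %), by the number of bases in which the window differs from its closest Abcb1b window. The share was 0 for identical windows, 64.3% at 1 differing base and 92.6% at 8 or more.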

How the data were processed

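RNA-Seq by SOLiD sequencing was analysed in 4 libraries, 1 per tissue and protocol, grouped by their labels. The deposited match files hold 1 line per uniquely placed read with position, strand and color mismatches, and no normalised value. The authors had matched 35 colors with up to 3 mismatches to RefSeq exons of mm9 and to exon-exon junctions and had removed reads with several placements. The deposited reports hold numbers of reads, and the deposited tables hold positions of exons and junctions. The labels give ribosomal RNA depletion for the RNA fragmented libraries, whereas the methods describe polyadenylated RNA, and the deposited totals of these libraries are below those the paper lists for its RNA fragmented protocol, so whether they are the libraries described there was not settled.

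Reads were counted here on the exon blocks of condensed genes, with 3 bases of tolerance. Positions of the blocks came from refGene and their gene names from GENCODE M1. Numbers of reads and start points equalled those in the reports. The thresholds of the 3-fold rule (1 added to the divisor) and of presence (above 0.01, at least 2 start points) were those of the study, which set them for FPKM of RefSeq transcripts from another alignment, and were applied here to RPKM of condensed genes. No column of per-sample values was left out (0 unused). Count models were kept for counts as deposited, and here reads were counted from deposited positions, so the planned quasi-likelihood test was replaced, by choice, with limma (version 3.58.1) with voom weights on log2 scaled reads, trimmed-mean scaling, at least 10 reads in 2 or more libraries, and Benjamini-Hochberg adjustment over all genes tested. On simulated data of 14096 genes for the tissue comparison, 73 of 100 genes changed 4-fold and 98 of 100 changed 8-fold were recovered, and 15 unchanged genes were called. The simulation used a single dispersion of 0.1 and the same change in both protocols, so these numbers may not hold for the real libraries. Intervals are exact for counts and ratios and Wilson intervals for shares, at the 95% level, and cover counting error only. Reads carry no molecular identifiers. A count of 0 was set against 3 reads.

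Of the reads placed on junctions (0.754% to 0.822% of each library), 86.1% to 90.2% carried 3 mismatches, beside 14.8% to 18.9% on exons. They were kept in the counts and left out as an alternative.

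The members, the related gene lists and the marker lists were chosen with earlier results of these data known. Members given with values in every library were mainly those leading a subfamily, past 3-fold in both pairs, called between tissues, known as drug or bile salt pumps, or opposite between protocols. Subfamily F was given as a range. Other named members, some of them also with values in every library, were chosen after their values were seen. A few members and list genes that are counted are not reported here by name or drawn. Sequences were read from mm9. Alternatives were other penalties, scalings, mismatch limits, start points for reads, thinned libraries, filters, and fits without the protocol term. The software was R 4.3.3 and Python 3.11.15.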

Additional observations from a re-analysis of the deposited data

Results flagged for a closer look

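For 4 members the tissues lay in opposite order in the protocols, with counting intervals of the ratio that excluded 1 on opposite sides. The ratio of colon to small intestine in RPKM was 0.508 by polyA and 3.18 by rRNA depletion for Abca9, 1.95 and 0.260 for Abcc6, 0.604 and 2.41 for Abce1, and 0.855 and 1.51 for Abcf2. The difference between the pairs was not tested, since each holds 1 library per tissue. How many of all genes showed such an order was not counted, so it cannot be read as a trait of these members. After the scaling factors of the fit had been applied, Abcf2 no longer had intervals on opposite sides, whereas Abca9, Abcc6 and Abce1 did. In the fit of both pairs none of the 4 was called between tissues, with a limma adjusted p of 0.893 for Abca9, 0.645 for Abcc6, 0.879 for Abce1 and 0.812 for Abcf2.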

How the results depend on the processing

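With a penalty of 0.1 RPKM, 9 members were past 3-fold in the polyA pair (5 with 1 RPKM) and 8 in the rRNA-depleted pair (4 with 1 RPKM). With start points in place of reads 2 were in the rRNA-depleted pair, Abcb6 and Abcc3 being lost. With median-of-ratios scaling the rRNA-depleted pair had 2 in colon and 4 in small intestine, beside 3 and 1. Exon reads alone or at most 1 mismatch took Abca12 out of the polyA calls. Under these settings of the 3-fold rule only members were counted, so no share over all genes stands beside them. In the fit between tissues, 5 of 8 calls were kept with no filter on low counts (Abcc1, Abcc5 and Abcg3 lost), and without the protocol term limma called 0 members and 0 genes, with 3 members and 724 genes at an unadjusted p under 0.05. Under the other settings of that fit 6 to 9 members were called. Abcc5 was lost with median-of-ratios factors, with at most 1 mismatch and with exon reads alone (the last chosen after seeing the data), and Abcg3 with total reads and at most 1 mismatch. Abcd3 was gained with median-of-ratios factors. Over all genes, total reads in place of scaling factors moved the split of colon and small intestine calls from 959 and 924 to 1189 and 626, and that of rRNA-depleted and polyA calls from 2708 and 3776 to 4503 and 2039. In the last 2000 exon bases the median share was 69.2%, 75.5%, 50.8% and 48.4%, in the order small intestine polyA, colon polyA, small intestine rRNA-depleted and colon rRNA-depleted. By uniquely placeable length Abcb1a ranked 2 and not 3 among members in small intestine rRNA-depleted. No member called in these comparisons changed direction under the settings tried for it. Among members with no tissue call, the scaling of the fit turned the small differences of Abca7, Abcc4 and Abcc10 in the rRNA-depleted pair and of Abcb9 and Abcd4 in the polyA pair. The cause of these changes was not tested.

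Leaving out a library leaves 1 pair and no residual degree of freedom, so it gives a value and no test. DESeq2 was planned and not run, since count models were kept for counts as deposited. No paired analysis was possible because the labels give no animal numbers, beyond the fit with protocol as a term, which sets the tissues against each other within each protocol. Values by rRNA depletion rest on fewer reads, which limits what can be seen for members with few reads.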
